A study of Mus musculus with 2 samples.

Results

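Neutrophils without macrophage transcripts were examined as barcodes of the single-cell RNA-seq (scRNA-seq) libraries in which S100a8 and S100a9 made up at least 1% of the unique molecular identifiers (UMIs, each a counted RNA molecule), Retnlg, Csf3r and Cxcr2 together had at least 3 UMIs, C1qa, C1qb and C1qc together had at most 3, and Cd79a, Cd79b and Ms4a1 together had at most 2. The rule selected 341 of 11078 barcodes that passed the filter of over 500 and under 6000 genes and under 25% mitochondrial UMIs. Of these, 121 of 5641 were in the Control library and 220 of 5437 in the ISO library. Because the members were chosen by these transcripts, their levels of the genes in the rule are a description and support nothing further.

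The study asked how the immune cells of the heart respond to a high dose of isoproterenol (ISO), a beta-adrenergic agonist that gives mice a cardiomyopathy resembling takotsubo syndrome. Live cells carrying CD45, the leukocyte marker, were sorted from collagenase-digested hearts of female C57BL6 mice. The ISO library (labelled TTS) came from mice 24 hours after 1 intraperitoneal injection of 200 mg per kg ISO. The Control library is Control by its title and came, by the study's methods, from mice given vehicle, although the treatment text of both samples names ISO. In the study's account several hearts were pooled in each library. Each group was 1 library, so there was no replicate, no test was possible, and every interval below is a 95% interval that covers counting error only. The intervals are exact Poisson intervals for levels, exact binomial (Clopper-Pearson) intervals for shares, and counting intervals for ratios.

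Neutrophils are short-lived granulocytes that leave the bone marrow with their granule proteins already made and enter injured tissue within hours. Chemokines such as CXCL2 call them in through CXCR2, while CXCR4 holds them in the marrow and marks aged cells returning to it. In tissue they release interleukin 1, tumour necrosis factor and further chemokines, and NF-kB drives many of these genes.

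The name of the group did not hold strictly in either library, since 29 of 121 Control and 4 of 220 ISO members had no UMI of 16 monocyte and macrophage markers other than C1q. The departure was larger in ISO, where these markers made up a median of 1.04% of UMIs, against 0.0616% in Control. Apoe, an apolipoprotein of macrophages, was found in 54 of 121 Control and 176 of 220 ISO barcodes, at 784 against 2184 CPM (UMIs summed over barcodes and scaled to a common total). Csf1r, the receptor of the macrophage growth factor, was found in 34 of 121 Control and 170 of 220 ISO barcodes, at 154 against 303 CPM. Mmp9, a neutrophil marker that the rule did not use, was found in 113 of 121 Control and 204 of 220 ISO barcodes, and G0s2, another, in 89 of 121 Control and 198 of 220 ISO barcodes. Spp1, which encodes osteopontin, was found in 4 of 121 Control and 158 of 220 ISO barcodes, at 23.5 against 5751 CPM. Fn1, fibronectin, had no UMI in 121 Control barcodes and was found in 159 of 220 ISO barcodes at 2456 CPM, at least 313-fold higher than the 3 UMIs a Control count of 0 allows. Ccr2, the chemokine receptor of inflammatory monocytes, stood at 49.7 against 658 CPM, and Arg1, arginase, at 10.5 against 892 CPM. With every barcode thinned to 1000 UMIs, Spp1 was found in 0.826% of Control and 47.7% of ISO barcodes, against 0.358% and 40.6% of lymphocyte barcodes, which should lack it. Fn1 was found in 0% of Control and 51.8% of ISO barcodes, against 0.358% and 42.2% of lymphocyte barcodes. ISO lymphocyte barcodes therefore held these transcripts at shares not far from those of the members, and the 16 markers made up a median of 0.0962% of UMIs in Control and 0.488% in ISO lymphocyte barcodes. Median depths were 3811 and 6790 UMIs in lymphocyte barcodes and 2762 and 8860.5 UMIs in members. A macrophage profile was estimated at 9.54% of the UMIs of Control members and 80.9% of those of ISO members. Whether that RNA came from other cells was not tested. Mmp9, by contrast, was found in 75.2% of Control and 50.5% of ISO barcodes, against 0.0597% and 1.07% of lymphocyte barcodes.

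The 16 markers (among them Emr1, Mrc1, Csf1r, Ms4a7, Apoe, Fcgr1, Trem2, Spp1, Arg1, Fn1, Ly6c2, Ccr2, Plac8, Ms4a4c and Vcan) made up a median of 0.0616% of UMIs in Control members and 1.04% in ISO members. The limit of 0.3% was set after these values were seen. Below it lay 114 of 121 Control members, 94.2% (88.4 to 97.6), and 64 of 220 ISO members, 29.1% (23.2 to 35.6). These are called marker-low barcodes, and the 7 Control and 156 ISO members at or above it marker-high barcodes. ISO members were split by depth along the same line, with a median of 4010 UMIs in marker-low and 10588.5 UMIs in marker-high barcodes. What the marker-high barcodes are was not tested. Each result below is given for marker-low barcodes, and for all members in some cases where the values part. In marker-low barcodes the summed macrophage markers were 527 CPM in Control and 532 CPM in ISO, the monocyte markers 260.5 and 417 CPM, and Spp1, Arg1 and Fn1 together 17.4 and 273 CPM. The limit and the rule capped these markers, so their low levels are a description and support nothing further. The macrophage profile was estimated at 4.61% of UMIs in Control and 6.34% in ISO marker-low barcodes.

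**Figure D1:**
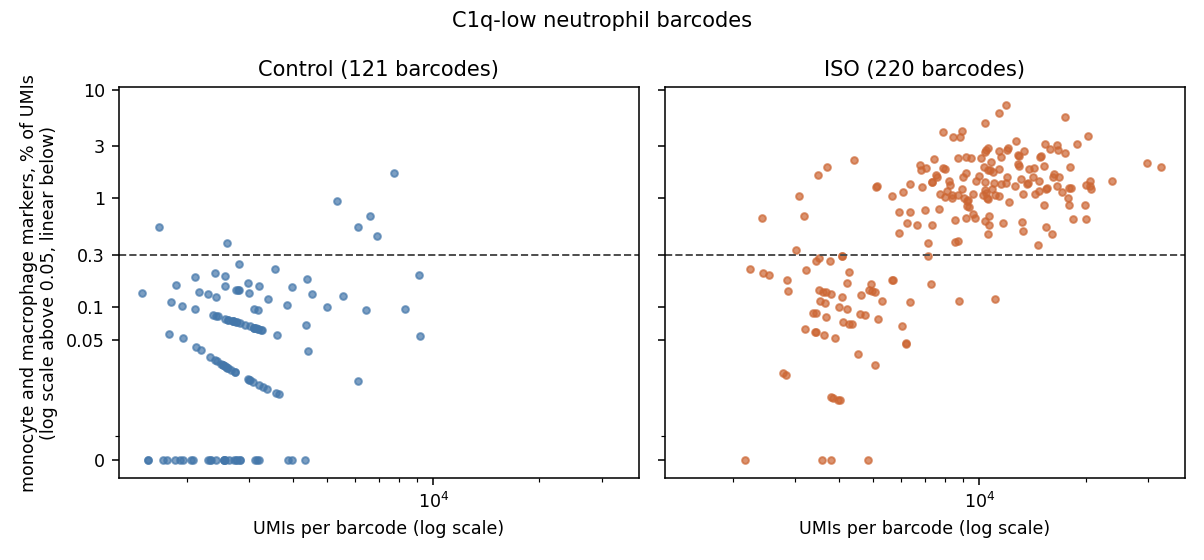
Share of UMIs in 16 monocyte and macrophage markers (vertical axis, percent, log scale above 0.05 and linear below) against UMIs per barcode (log scale), each point 1 member. The dashed line is 0.3%; 7 of 121 Control and 156 of 220 ISO barcodes lie on or above it, most of the ISO ones deeper than the barcodes below.

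Neutrophil transcripts were a smaller share of the UMIs in ISO members with a higher marker share, which were also deeper. Their number was close, with a median of 27.5 UMIs of Retnlg, Csf3r and Cxcr2 in marker-low and 26 UMIs in marker-high ISO barcodes. S100a8, S100a9 and these 3 genes chose the members and are given as a description. S100a9 was 72096 CPM in the 30 ISO members with under 0.1% of these markers, 49605 CPM in the 34 from 0.1 to 0.3%, and 17347 CPM in the 101 from 1 to 3%. Over the same steps G0s2, a lipolysis inhibitor abundant in neutrophils, went from 9743 to 8487 and 2219.7 CPM. Lyz2, lysozyme of all myeloid cells, went the other way, from 2145 to 2730.0 and 11430.1 CPM. Ribosomal protein genes made up 2.71%, 4.38% and 10.5% of UMIs. Cxcl2 differed less, at 27182, 30230.5 and 20033 CPM.

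The share of kept cells pointed in opposite directions for all members and for marker-low barcodes. All members were 2.15% (1.78 to 2.56) of kept Control cells and 4.05% (3.54 to 4.60) of kept ISO cells, a log2 ratio of 0.92 (0.60 to 1.23). Marker-low barcodes were 2.02% (1.67 to 2.42) in Control and 1.18% (0.908 to 1.5) in ISO, a log2 ratio of -0.78 (-1.22 to -0.34). Control held many B cells, and with B cells out of the denominator these ratios were 0.25 (-0.066 to 0.56) and -1.45 (-1.88 to -1.01). These are shares of sorted cells, so a share can move because other cell types moved. The 0.3% limit also took out more ISO barcodes in another cell type, keeping 1539 of 1674 lymphocyte barcodes in Control and 72 of 187 in ISO. How far the lower ISO share of marker-low barcodes follows from the limit itself was not tested. Of all barcodes with neutrophil transcripts, the C1q-low ones were 54.3% (47.5 to 60.9) in Control and 52.5% (47.6 to 57.4) in ISO.

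The lowest S100a8 and S100a9 share of a member was 1.20% in Control and 1.01% in ISO, and the highest just outside was 0.834% and 0.987%. In ISO, 20 members lay within 25% above this limit and 19 otherwise qualifying barcodes within 25% below it, against 1 and 3 in Control. Of the members, 29 of 121 in Control and 56 of 220 in ISO held 1 to 3 C1q UMIs, and just outside the limit 5 Control and 22 ISO barcodes held 4 to 10. The libraries had 15 barcode sequences in common, none of them a member. Other lineages (T, NK, dendritic and eosinophil markers, 3 or more UMIs) were present in 6 of 114 marker-low Control and 4 of 64 marker-low ISO barcodes. NK cell markers summed to 645 CPM in Control and 21.6 CPM in ISO marker-low barcodes, found in 10 and 1 of them. Hemoglobin genes and the eosinophil genes Epx, Prg2 and Il5ra had no UMI in any member. Ccr3, the remaining eosinophil marker, was found in 2 of 121 Control and 2 of 220 ISO members.

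Marker-low barcodes were compared first on the genes that define neutrophils. Their alarmin levels were close, with S100a8 at 35454 CPM in Control (34829 to 36088) and 32248 CPM in ISO (31584 to 32922) and S100a9 at 60646 CPM in Control (59827 to 61472) and 59561 CPM in ISO (58657 to 60475). Mmp9, gelatinase B of the tertiary granules, was 1632 against 1665 CPM, a log2 ratio of 0.029 (-0.15 to 0.21). Retnlg was 9774 against 12968 CPM. Csf3r, the G-CSF receptor, was 2.25-fold lower in ISO, at 2561 against 1137 CPM, and Cxcr2 was 1247 against 824 CPM. In all members S100a8 was 33011 against 12844 CPM, and in marker-high ISO barcodes 9853 CPM. G0s2 was 3140.2 CPM in Control (2956 to 3333) and 9043 CPM in ISO (8693 to 9404) in marker-low barcodes, a log2 ratio of 1.53 (1.42 to 1.63), and 2902 against 3226 CPM in all members. Thinned, it was found in 60.5% of Control and 84.4% of ISO barcodes, against 0.520% and 2.78% of lymphocyte barcodes.

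Across all genes, 317 of 3487 compared (at least 20 UMIs in both libraries together) were at least 2-fold higher in ISO marker-low barcodes, 9.09%, and 386 were at least 2-fold lower, 11.1%. The median log2 ratio of all 3487 was -0.12. In all members 2287 of 7614 genes, 30%, were at least 2-fold higher and 1073, 14.1%, at least 2-fold lower, with a median of 0.26. The gene lists below are read against these shares.

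**Figure D2:**
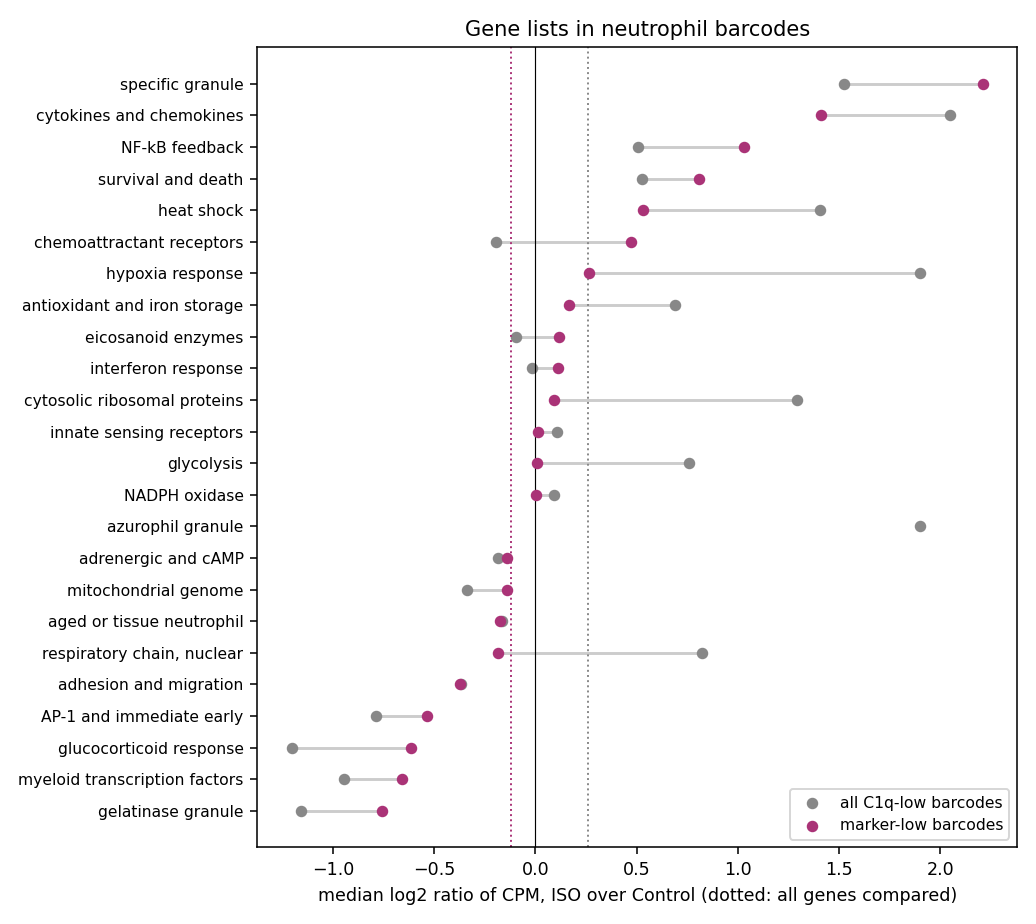
Median log2 ratio of CPM, ISO over Control, for 24 gene lists, in all C1q-low barcodes (grey) and in marker-low barcodes (purple), joined by a line; dotted lines are the medians of all genes compared, 0.26 and -0.12. Specific granule genes (1.52 and 2.21) and cytokines and chemokines (2.05 and 1.41) lie highest in marker-low barcodes, while ribosomal protein genes (1.29 and 0.093) move to near 0. The azurophil granule list has no marker-low point, since none of its genes reached 20 UMIs.

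Cytokine and chemokine genes were higher in ISO, and not in neutrophil barcodes alone. The list had a median log2 ratio of 2.41 in monocyte barcodes (chosen by Ly6c2 and Ccr2) and 1.58 in macrophage barcodes (chosen by C1q). In marker-low barcodes 10 of 16 genes compared were at least 2-fold higher in ISO, 0 were at least 2-fold lower, and the median log2 ratio was 1.41. Cxcl2, a CXCR2 ligand that recruits neutrophils, was 5212 CPM in Control (4975 to 5459) and 28881 CPM in ISO (28253 to 29519.9), a log2 ratio of 2.47 (2.40 to 2.54) and 5.54-fold higher. Over barcodes it ran from 0 through a median of 1248 to 39425 CPM in Control, and from 0 through 25996 to 81550.3 CPM in ISO. The libraries therefore overlapped, with most ISO barcodes high and some Control barcodes high as well. A UMI of Cxcl2 was found in 83 of 114 Control and 63 of 64 ISO barcodes. With each barcode thinned to 1000 UMIs it was found in 58.8% of Control and 93.8% of ISO barcodes, against 5.59% and 25% of lymphocyte barcodes. The lymphocyte barcodes, which should lack it, had median depths of 3808 and 3708 UMIs, beside 2741 and 4010 for the neutrophils.

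The other CXCR2 ligands and the inflammatory cytokines stood as follows. Tnf, tumour necrosis factor, was 226 against 1550.3 CPM, a log2 ratio of 2.77 (2.43 to 3.12), in 30 of 114 Control and 51 of 64 ISO barcodes. Thinned, Tnf was found in 13.2% of Control and 54.7% of ISO barcodes, against 0.845% and 6.94% of lymphocyte barcodes. Il1a, interleukin 1 alpha, was 34.7 against 709 CPM, a log2 ratio of 4.30 (3.47 to 5.12). Thinned, Il1a was found in 1.75% of Control and 39.1% of ISO barcodes, against 0.130% and 1.39% of lymphocyte barcodes. Cxcl3, a further CXCR2 ligand, was 116 against 896 CPM, but 1 Control barcode held 97.5% of its Control UMIs. Cxcl1 had 3 UMIs in Control and 120 in ISO, a log2 ratio of 5.42 (3.89 to 6.95), in 17 ISO barcodes. Il1b, interleukin 1 beta, was 24647 CPM in Control (24126 to 25176) and 24521 CPM in ISO (23943 to 25110.5), a log2 ratio of -0.0074 (-0.053 to 0.039), and had a UMI in every marker-low barcode. Its barcodes ran from 4188 to 62207 CPM in Control and from 476 to 54708 CPM in ISO.

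Ccl3 and Ccl4, chemokines that attract monocytes and T cells, were 298 against 1266 CPM and 813 against 2597 CPM, log2 ratios of 2.08 and 1.67. Thinned, Ccl4 was found in 23.7% of Control and 53.1% of ISO barcodes, against 22.4% and 43.1% of lymphocyte barcodes. The lymphocyte barcodes were chosen by B, T and NK genes, and whether they make Ccl4 themselves was not tested. Il1rn, the interleukin 1 receptor antagonist, was 457 against 1011 CPM. Csf1, the macrophage growth factor, was 205 against 449.6 CPM in marker-low barcodes, while in all members it was 230.1 against 127 CPM. Ccl2, a monocyte attractant, shows how far the 2 sets could differ, with 28.9 against 119 CPM in marker-low barcodes and 26.1 against 4333 CPM in all members. Ccl6, a macrophage and neutrophil chemokine, was 2689 against 2086 CPM, and Osm, oncostatin M, 767 against 942 CPM. Il6 had 9 UMIs in Control marker-low barcodes, 8 of them in 1 barcode, and 1 in ISO, a log2 ratio of -2.35 (-4.83 to 0.14), whereas in all members it was 23.5 against 99.4 CPM.

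**Figure D3:**
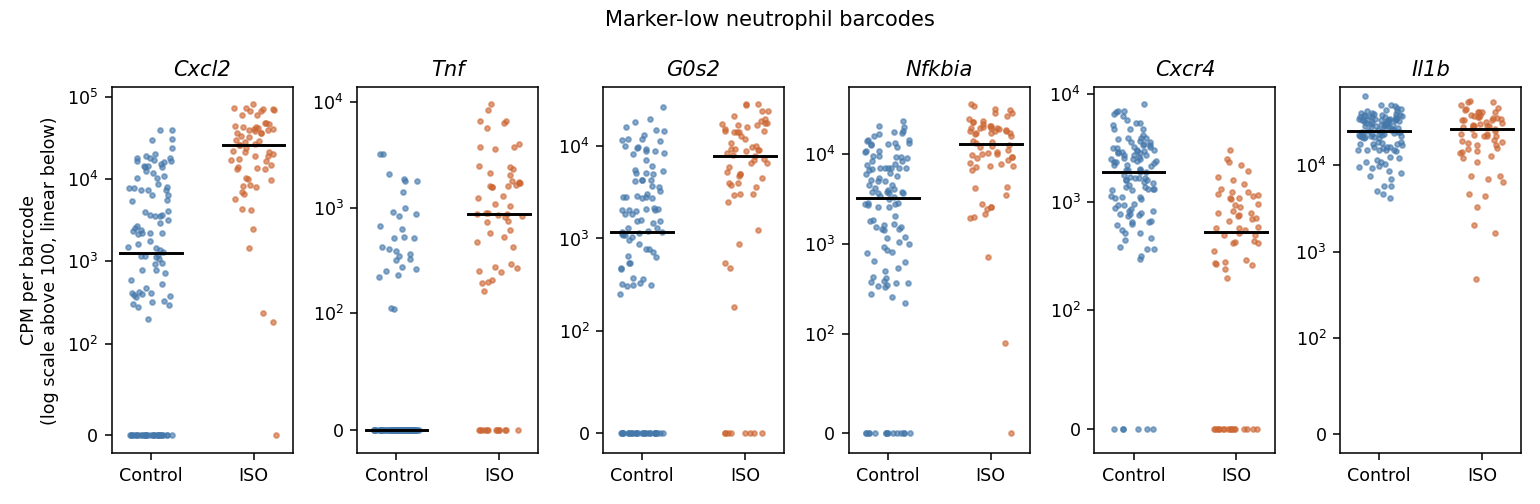
CPM of 6 genes in each marker-low barcode of Control (114) and ISO (64); the vertical axes are log scale above 100 and linear below, and the black line is the median barcode. The median of Cxcl2 is 1248 in Control and 25996 in ISO, that of Cxcr4 1884 and 529, and that of Il1b 25031 and 26079; the libraries overlap in every gene.

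The promoters of Cxcl2 (gene on chromosome 5, 90903871 to 90905938, plus strand, GRCm38) and Cxcl3 (chromosome 5, 90786103 to 90789600, plus strand) are shown because these neighbouring chemokine genes stood higher together in ISO and hold the same letters. Each sequence is the RefSeq promoter window (GRCm38.p6) around the start of the gene in RefSeq, at chr5:90903649-90903948 and chr5:90785851-90786150, read 5' to 3' on the plus strand. Capitals mark matches to the NF-kB consensus on either strand, which overlap on both strands here.
Cxcl2: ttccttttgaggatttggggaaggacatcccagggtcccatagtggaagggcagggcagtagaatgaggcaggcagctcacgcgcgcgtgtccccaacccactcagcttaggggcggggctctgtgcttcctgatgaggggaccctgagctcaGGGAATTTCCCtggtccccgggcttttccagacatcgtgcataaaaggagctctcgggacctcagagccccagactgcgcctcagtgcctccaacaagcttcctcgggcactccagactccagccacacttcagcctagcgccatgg
Cxcl3: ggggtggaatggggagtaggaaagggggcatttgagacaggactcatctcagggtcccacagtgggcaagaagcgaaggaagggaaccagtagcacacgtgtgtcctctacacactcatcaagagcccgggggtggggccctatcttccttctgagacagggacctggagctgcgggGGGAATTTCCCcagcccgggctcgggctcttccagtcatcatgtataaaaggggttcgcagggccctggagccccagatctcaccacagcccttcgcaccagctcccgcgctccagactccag
The match began 97 bases before the start of Cxcl2 and 73 bases before that of Cxcl3. Of 27025 genes with a promoter in the RefSeq table, 1388, or 5.14%, held a match. In the cytokine and chemokine list 6 of 15 did (Csf1, Cxcl1, Cxcl2, Cxcl3, Il6 and Vegfa), in the NF-kB feedback list 6 of 9 (Ier3, Nfkb2, Nfkbia, Nfkbie, Sod2 and Tnfaip3), in the survival list 3 of 15, in the chemoattractant receptor list 1 of 11 and in the specific granule list 0 of 7. The NF-kB feedback list was chosen for its link to NF-kB, so its share of matches is a description and supports nothing further. Cxcl2 and Cxcl3 were shown for holding the match, so its presence in both is likewise a description. A match is a run of letters and says nothing of binding in these cells.

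Genes of the NF-kB feedback list were also higher in ISO marker-low barcodes. The list holds inhibitors of NF-kB, such as Nfkbia, and also other targets and subunits, such as Sod2 and Nfkb2. In marker-low barcodes 7 of 12 genes compared were at least 2-fold higher in ISO, 0 were at least 2-fold lower, and the median log2 ratio was 1.03. Nfkbia, the inhibitor that holds NF-kB in the cytoplasm, was 4883 CPM in Control (4652 to 5121) and 13435 CPM in ISO (13008 to 13873), a log2 ratio of 1.46 (1.38 to 1.54). Ier3 was 411 against 1906 CPM, and Sod2, mitochondrial superoxide dismutase, 78.1 against 345 CPM. Tnfaip3, the ubiquitin-editing enzyme A20, was 1068 against 2147 CPM. Birc3, an inhibitor of apoptosis, was 504 against 471 CPM. In all members 2 of 12 genes of this list were at least 2-fold higher in ISO and 2 at least 2-fold lower. Their median log2 ratio was 0.51, where 30% of all genes compared were at least 2-fold higher and 14.1% at least 2-fold lower.

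Survival genes divided by member. In the survival and death list 5 of 12 genes compared were at least 2-fold higher in ISO, 0 were at least 2-fold lower, and the median log2 ratio was 0.81. Bcl2a1a, Bcl2a1b and Bcl2a1d, near-identical copies of a BCL2-family survival gene, had log2 ratios of 3.28, 3.36 and 3.16, and reads could be split among them by the counting. Bcl2l1, encoding BCL-XL, was 31.8 against 198 CPM, and Cflar, which restrains caspase 8, 72.4 against 356 CPM. Mcl1, on which neutrophil survival depends, was level at 3339.9 CPM in Control (3150.0 to 3538) and 3342 CPM in ISO (3130.2 to 3564).

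Granule genes did not differ as 1 group. The specific granule list had a median log2 ratio of 2.59 in monocyte and 4.04 in macrophage barcodes. In marker-low barcodes 4 of its 6 genes compared were at least 2-fold higher in ISO, 0 were at least 2-fold lower, and the median log2 ratio was 2.21. Lcn2, the siderophore-binding lipocalin, was 989.8 CPM in Control (888 to 1100.5) and 3201 CPM in ISO (2995 to 3419), a log2 ratio of 1.69 (1.51 to 1.87). Chi3l3 (now Chil3, chromosome 3, 106147554 to 106167564, minus strand), a chitinase-like protein, had no UMI in 114 Control barcodes and was found in 40 of 64 ISO barcodes at 853 CPM, at least 98.2-fold higher against a floor of 3 UMIs over the Control sum. Thinned, it was found in 0% of Control and 43.8% of ISO barcodes, against 0% and 4.17% of lymphocyte barcodes. Chi3l3 was also 111 and 4163 CPM in Control and ISO monocyte barcodes, and the part of monocyte RNA in its level was not tested. In all members Chi3l3 was found in 0 of 121 Control and 192 of 220 ISO barcodes at 2702 CPM.

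Ngp, a specific granule protein made in the marrow, was 28.9 against 273 CPM, found in 3 of 114 Control and 15 of 64 ISO barcodes, and Cd177, a neutrophil surface glycoprotein, was 26.0 against 179.9 CPM, found in 6 of 114 Control and 26 of 64 ISO barcodes. Thinned, Ngp was found in 1.75% of Control and 15.6% of ISO barcodes, against 0.0650% and 0% of lymphocyte barcodes. The earliest granule genes were at the floor: Mpo and Elane had no UMI in marker-low barcodes of either library. Of 5 gelatinase granule genes compared, 0 were at least 2-fold higher and 1 was at least 2-fold lower, 2 had a ratio above 0, and the median log2 ratio was -0.76. Adam8, a sheddase, was 674 against 291 CPM, Slpi, a protease inhibitor, 3117 against 1842 CPM, and Mmp8, collagenase, 509 against 589.9 CPM.

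Receptors for chemoattractants and adhesion molecules differed gene by gene. In the chemoattractant receptor list 1 of 10 genes compared was at least 2-fold higher in ISO, 2 were at least 2-fold lower, and the median log2 ratio was 0.47. Cxcr4 (chromosome 1, 128588199 to 128592293, minus strand) was 2069 CPM in Control (1920.5 to 2227) and 673 CPM in ISO (579.7 to 776), 3.08-fold lower, with a log2 ratio of -1.62 (-1.85 to -1.39). It was found in 108 of 114 Control and 47 of 64 ISO barcodes, and its barcodes ran from 0 through a median of 1884 to 8124 CPM in Control, and from 0 through 529 to 3022 CPM in ISO. Thinned, Cxcr4 was found in 72.8% of Control and 48.4% of ISO barcodes, against 32.0% and 18.1% of lymphocyte barcodes, a cell type that also uses this receptor. It was lower in all members as well, at 2029 against 363 CPM. Ltb4r1, the leukotriene B4 receptor, was 81.0 against 263 CPM, and Ccrl2, a chemerin receptor, 1936 against 3683 CPM. Ccr1 was 836 against 766 CPM. Itgam, the integrin CD11b, was 674 against 791 CPM. In the adhesion and migration list 0 of 9 genes compared were at least 2-fold higher in ISO, 1 was at least 2-fold lower, and the median log2 ratio was -0.37. In all members 1 of 10 chemoattractant receptor genes was at least 2-fold higher and 3 were at least 2-fold lower, with a median of -0.19.

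**Figure D4:**
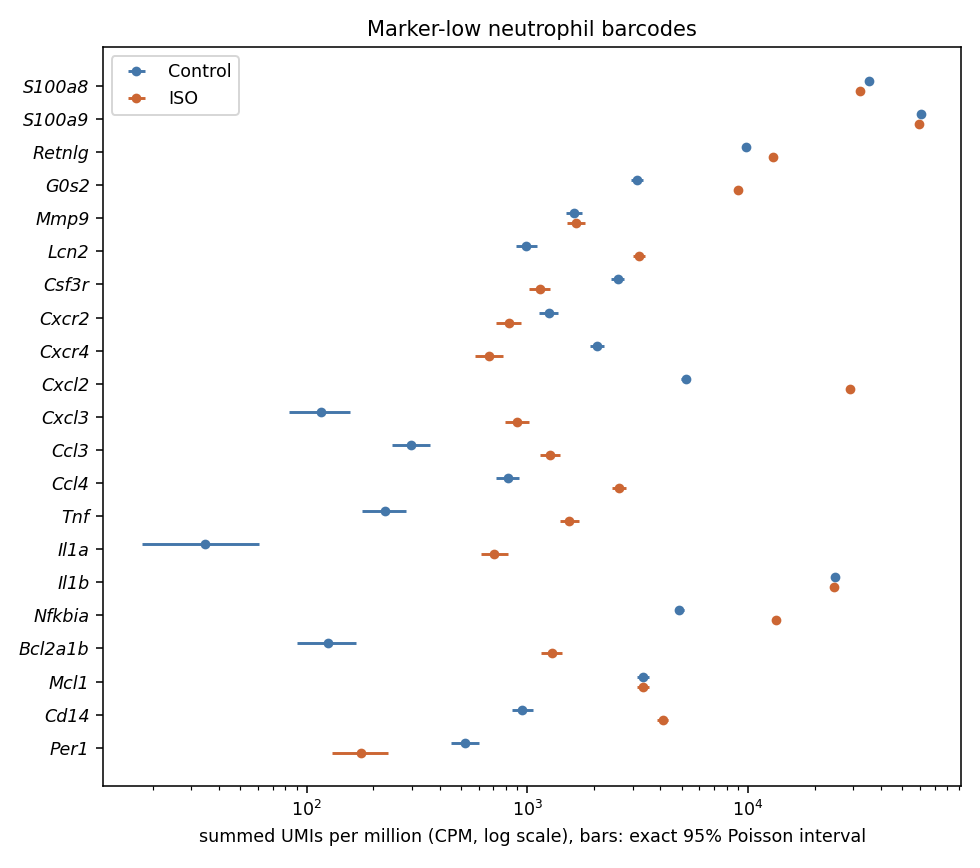
Summed level of named genes in marker-low barcodes (horizontal axis, CPM, log scale) in Control (blue) and ISO (orange), with exact 95% Poisson intervals. S100a9, Mmp9, Il1b and Mcl1 lie together, Cxcl2, Tnf, Il1a, Nfkbia and Bcl2a1b lie to the right in ISO, and Cxcr4, Csf3r and Per1 lie to the left.

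Sensing receptors were mixed, with 5 of 17 at least 2-fold higher and 1 at least 2-fold lower. Cd14, the lipopolysaccharide co-receptor, was 949 CPM in Control (849 to 1058) and 4094 CPM in ISO (3859 to 4338), a log2 ratio of 2.11 (1.93 to 2.28). Tlr4, its partner, was 34.7 against 126 CPM, and Tlr2 373 against 302 CPM. Thinned, Cd14 was found in 42.1% of Control and 79.7% of ISO barcodes, against 1.88% and 11.1% of lymphocyte barcodes. The lectin receptors diverged: Clec4n, dectin 2, was 26.0 against 388 CPM, in 4 of 114 Control and 36 of 64 ISO barcodes, and Clec7a, dectin 1, 1710.5 against 755 CPM. In the list of the NADPH oxidase, which makes superoxide, 2 of 6 genes compared were at least 2-fold higher in ISO. In this list 1 was at least 2-fold lower, and the median log2 ratio was 0.0027. Ncf1 was 376 against 1018 CPM. Cybb, the catalytic subunit, was 226 against 522 CPM, with 50% of its Control UMIs in 1 barcode.

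Immediate early and glucocorticoid response genes at least 2-fold lower in ISO were few, as among all genes compared (11.1%). In the AP-1 list 1 of 11 genes compared was at least 2-fold higher in ISO, 2 were at least 2-fold lower, and the median log2 ratio was -0.54. Fos was 3728 against 1687 CPM, Atf3 738 against 349 CPM and Junb 7982 against 5504 CPM, whereas Egr1 was 258 against 709 CPM. In the glucocorticoid response list 0 of 7 genes compared were at least 2-fold higher in ISO, 1 was at least 2-fold lower, and the median log2 ratio was -0.61. Per1, a clock gene induced by glucocorticoids, was 524 against 176 CPM, and Tsc22d3, encoding GILZ, 769.9 against 453 CPM. In the adrenergic and cAMP list 1 of 10 genes compared was at least 2-fold higher in ISO, 1 was at least 2-fold lower, and the median log2 ratio was -0.14.

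Of 9 transcription factors of myeloid cells compared, 1 was at least 2-fold higher and 2 were at least 2-fold lower in ISO marker-low barcodes, and the median log2 ratio was -0.66, against -0.95 in all members. Spi1, encoding PU.1, was 1097 against 576 CPM, Klf2 1557 against 881 CPM and Nfe2 133 against 57.6 CPM, while Cebpb was 5435 against 4673 CPM. Irf8, which directs monocyte and dendritic fates, had 39 UMIs in Control, 61.5% of them in 1 barcode, and 3 in ISO. Of enzymes that make eicosanoids, Ptgs2, the inducible cyclooxygenase, was 2133 against 1996 CPM, and Alox5ap, needed for leukotrienes, 1213 against 1522 CPM.

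Several lists of general cell function had different medians in all members and in marker-low barcodes. Cytosolic ribosomal protein genes had a median log2 ratio of 1.29 in all members, with 57 of 84 at least 2-fold higher, and of 0.093 in marker-low barcodes, with 0 of 74. Nuclear genes of the respiratory chain gave 0.83 and -0.18, hypoxia genes 1.90 and 0.26, glycolysis genes 0.76 and 0.0082, and heat shock genes 1.41 and 0.53. Hilpda, a lipid droplet protein induced by hypoxia, was nonetheless 34.7 against 478 CPM in marker-low barcodes. Slc2a3, the glucose transporter GLUT3, was 382 against 129 CPM. Fth1, ferritin heavy chain, was 9536 against 22957 CPM, found in every marker-low barcode. In the interferon response list 5 of 18 genes compared were at least 2-fold higher in ISO marker-low barcodes and 2 at least 2-fold lower. The median log2 ratio was 0.11, with Ifitm1 at 967 against 2320.1 CPM and Isg15 at 828 against 432 CPM.

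Several of the largest ratios rested on few barcodes. Gzma, a granzyme of NK and T cells, had 156 UMIs in 6 of 114 Control marker-low barcodes and none in ISO. Saa3 had 77 UMIs in 8 ISO barcodes, 59.7% of them in 1, and Gdf15 61 UMIs in 3 barcodes, 90.2% in 1. Several other genes with low ratios were found in more barcodes. Scnn1a, a sodium channel subunit, was 177 against 10.8 CPM, found in 39 of 114 Control and 2 of 64 ISO barcodes. Sh2d3c, an adaptor, was 582 against 129 CPM, Prr5l 223 against 25.2 CPM and Vps37b 1259 against 306 CPM.

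Barcodes with neutrophil transcripts and more than 3 C1q UMIs are the group most like the members. There Cxcl2 was 5128 and 20162 CPM in Control and ISO, beside 5212 against 28881 CPM in marker-low barcodes. Cxcr4 was 695 and 264 CPM, and G0s2 875 and 2124 CPM, beside 3140.2 against 9043 CPM in marker-low barcodes. Il1b was 8854 and 14306 CPM there. With 1 library per group, whether these pairs of values differ between the groups of barcodes could not be tested.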

How the data were processed

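CD45+ heart cells were profiled with 10x Genomics 3' V3 chemistry. The authors deposited counts, 1 table per library of UMI counts per gene and barcode. Per the labels (the submitters' processing notes) these were made with UMI-tools 1.0.0, STAR 2.7.3a and featureCounts 1.6.4 on mm10. Libraries held 47382455 UMIs in 5927 barcodes (Control) and 58495112 in 5514 (ISO). Members and gene lists were chosen with earlier results of these data known, and the 0.3% marker limit after seeing these values.

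Python 3.11.15, numpy 2.4.6 and scipy 1.17.1 were used. UMIs were summed over barcodes and divided by their total (CPM). Log2 ratios had 0.5 UMI added, and genes with under 20 UMIs in both libraries together were left out of counts. With 1 library per group no test was made and a call means a 2-fold ratio. Shares of barcodes with a UMI were taken after thinning to 1000 UMIs. Genes were grouped in 24 lists, with 15 lists of cell markers beside them. No doublet caller was run; barcodes were limited only by the markers in the rule. Background shares came from lymphocyte barcodes (5 or more UMIs of B, T and NK genes, markers under 0.3% beside marker-low barcodes). The text could name list members and the 12 genes with the largest ratios each way, the library that was higher reaching 100 CPM and 50 UMIs. Alternatives comprised 24 planned settings and 4 added after seeing the data. The ratio step was tested on simulated data. Some genes of the lists are not reported here.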

Additional observations from a re-analysis of the deposited data

Results flagged for a closer look

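Adam8 and Clec7a were at least 2-fold apart in opposite directions in marker-low neutrophil and monocyte barcodes, and the difference between the cell groups was not tested. Monocyte barcodes were chosen by Ly6c2 and Ccr2, and their make-up differed between the libraries. Their NK cell markers summed to 5408 CPM in Control and 83.0 CPM in ISO, and their macrophage markers to 713 and 5002 CPM. Whether the monocyte ratios follow from this was not tested. The log2 ratio of Adam8 was -1.20 (-1.57 to -0.84) in marker-low neutrophil barcodes and 3.13 in monocyte barcodes, where it was 31.9 CPM in Control and 281 CPM in ISO. The log2 ratio of Clec7a was -1.18 (-1.40 to -0.95) in marker-low neutrophil barcodes and 1.88 in monocyte barcodes, where it was 131 CPM in Control and 479.8 CPM in ISO.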

How the results depend on the processing

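No paired analysis was possible because each group was 1 library. With monocyte and macrophage markers under 0.3%, a limit added after seeing the data, the log2 ratio of the share of members reversed from 0.92 to -0.78, the 2-fold counts went to 317 higher and 386 lower, and the list medians to 1.41 (cytokines and chemokines), 2.21 (specific granule), 1.03 (NF-kB feedback), 0.47 (chemoattractant receptors), -0.54 (AP-1), -0.18 (respiratory chain) and 0.093 (ribosomal proteins). Mmp9 reversed to 0.029, Lyz2 to -0.27, Il6 to -2.35 and Apoe to -0.28.

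For all members, the share ratio was 1.44 with at least 1000 genes, 0.52 with S100a8 and S100a9 at 2%, 0.48 after thinning and 0.25 without B cells, and the C1q-low difference was 8.52 percentage points with at least 1000 genes. Subtracting a macrophage profile, estimated at 80.9% of ISO members' UMIs, gave 428 genes higher and medians of 2.81 (specific granule), 1.21 (NF-kB feedback), 0.68 (chemoattractant receptors), -6.90 (respiratory chain) and -8.47 (ribosomal proteins, reversed). It also reversed S100a8 to 0.48, S100a9 to 0.58, Mmp9 to 0.54, Lyz2 to -11.50, Slpi to 0.32, Ccl4 to -8.90, Il1r2 to 0.49, Trem1 to 0.52, Birc3 to 0.17, Prdx1 to -0.60, Apoe to -0.60 and Gdf15 to -0.60. Ratios left by this subtraction can rest on counts near 0, where the added 0.5 UMI and the totals set the value. Prdx1, Apoe and Gdf15 had the same value. These reversals are therefore not read as directions of the genes or lists. With S100a8 and S100a9 at 2%, Fabp4 reversed to -0.081. Chemoattractant receptors had a median of 0.092 with cells weighted equally, -0.45 with median of ratios scaling and 0.034 with at least 1000 genes. Median of ratios scaling gave -1.05 for AP-1 and 1.03 for ribosomal proteins, whose median was 1.57 without other-lineage barcodes and 1.04 with at least 1000 genes. The survival median was 1.38 without other-lineage barcodes and 1.78 with at least 50 UMIs. Genes lower numbered 703 with at least 50 UMIs and 2908 with no filter.

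For marker-low barcodes, the share ratio was -0.28 with at least 1000 genes, -1.45 without B cells and -1.48 with markers under 0.1%. Genes higher and lower numbered 109 and 180 with at least 50 UMIs, and 3332 and 2500 with no filter. Genes higher numbered 164 under 0.1% and 530 under 0.5%. Under 0.1% the medians were 0.92 (cytokines and chemokines) and 2.92 (specific granule), and under 0.5% that of ribosomal proteins was 0.60. Spp1 reversed to -1.88 after the macrophage profile was subtracted. Of the gene ratios under all alternatives, 115 of 1665 moved beyond the counting error and 1 reversed in marker-low barcodes, and 340 of 1495 moved and 17 reversed in all members. Of the shares of barcodes with a UMI, taken at 500 or 2000 UMIs or without thinning in place of 1000, 457 of 690 moved in marker-low barcodes and 562 of 690 in all members. The causes were not tested. Depth differed between the libraries (medians of 2741 and 4010 UMIs), and with 1 library of pooled hearts per group, animals, processing and treatment cannot be told apart. Leaving out a replicate was not possible.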
